A study of Mus musculus with 2 samples.

Results

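The genes described here are 7 members of the zinc-handling system of the cell, measured in mouse CD8 T cells that had been exposed to prednisolone or to vehicle. They are the metallothioneins Mt1 and Mt2, the zinc sensor gene Mtf1, the zinc exporter gene Slc30a1 and the zinc importer genes Slc39a6, Slc39a10 and Slc39a14. They were chosen by gene symbol, with earlier results of these data known. The transcript accession of each array probe had first been matched to RefSeq. The members are 7 of 23462 genes named on the array. All 7 had a probe, and 10 probes in all carried them.

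The prednisolone group was 1 culture of naive splenic CD8 T cells from C57BL/6 mice that received the synthetic glucocorticoid prednisolone at 1 µM. The vehicle group was 1 culture of the same kind of cells without the drug. Both were stimulated for 2 days through plate-bound antibodies to T cell receptor β (3 µg/ml) and CD28 (1 µg/ml) with interleukin-2 (10 ng/ml), then kept in interleukin-2 on a new plate for 3 days, so RNA was taken on day 5. Drug addition is described for the stimulation step. Each culture gave 1 single-colour array, so the design allows neither a test of the drug nor an SD over cultures, and p-values are not given.

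Metallothioneins are small cysteine-rich proteins that bind zinc and copper, and in mammals their genes are known to be induced by zinc and by glucocorticoids. Zinc enters the cytosol through transporters of the ZIP (Slc39) family and leaves it through transporters of the ZnT (Slc30) family. Free zinc in the cytosol activates the transcription factor MTF-1, which binds metal response elements in the promoters of Mt1, Mt2 and Slc30a1, and ZIP transporters are known to supply zinc during T cell activation.

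Promoters of 3 members are shown because they carry the response element of MTF-1, the factor that links the metallothioneins with the exporter gene. Each sequence is the 250 bases before the RefSeq start, 5′ to 3′ on the + strand of GRCm38.p6, and capitals mark cores of the metal response element (TGCACNC or TGCGCNC, searched on both strands). The windows are chr8:94178839-94179088 for Mt1, chr8:94172368-94172617 for Mt2 and chr1:191906531-191906780 for Slc30a1.
Mt1: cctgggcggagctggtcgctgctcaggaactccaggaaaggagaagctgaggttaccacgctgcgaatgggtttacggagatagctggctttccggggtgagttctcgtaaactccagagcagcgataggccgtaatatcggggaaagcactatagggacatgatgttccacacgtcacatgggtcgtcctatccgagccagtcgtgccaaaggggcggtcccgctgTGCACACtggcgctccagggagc
Mt2: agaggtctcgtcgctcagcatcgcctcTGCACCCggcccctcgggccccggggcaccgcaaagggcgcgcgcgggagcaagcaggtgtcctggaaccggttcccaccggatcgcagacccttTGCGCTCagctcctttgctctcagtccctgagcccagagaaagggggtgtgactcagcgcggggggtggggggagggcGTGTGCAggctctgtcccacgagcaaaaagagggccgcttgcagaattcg
Slc30a1: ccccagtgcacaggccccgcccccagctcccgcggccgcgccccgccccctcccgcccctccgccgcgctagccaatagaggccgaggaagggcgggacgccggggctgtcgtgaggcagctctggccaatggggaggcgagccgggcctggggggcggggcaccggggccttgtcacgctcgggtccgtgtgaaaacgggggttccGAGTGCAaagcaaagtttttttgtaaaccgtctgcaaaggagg

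Over the full window of 300 bases, which adds 50 bases after the start, Mt2 had 4 cores, Mt1 had 3 and Slc30a1 had 2. The other 2 metallothionein genes, Mt3 and Mt4, had 1 core each. Of 32851 RefSeq promoter windows of that length, 25.7% held at least 1 core, 7.11% at least 2, 1.97% at least 3 and 0.517% at least 4. No core was found in the Mtf1 window or in either of the 2 Slc39a10 windows. The glucocorticoid receptor half-site TGTTCT, on either strand, was present in 19.0% of all windows. Among the members with a window it was found in Mtf1 (1 match) and in none of Mt1, Mt2, Slc30a1 and Slc39a10. Windows were matched for 5 of the 7 members. A match is a description of the letters and not a measured binding site. Sequence outside these 300 bases was not searched, so a missing match does not show that a gene lacks such a site.

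**Figure D1:**
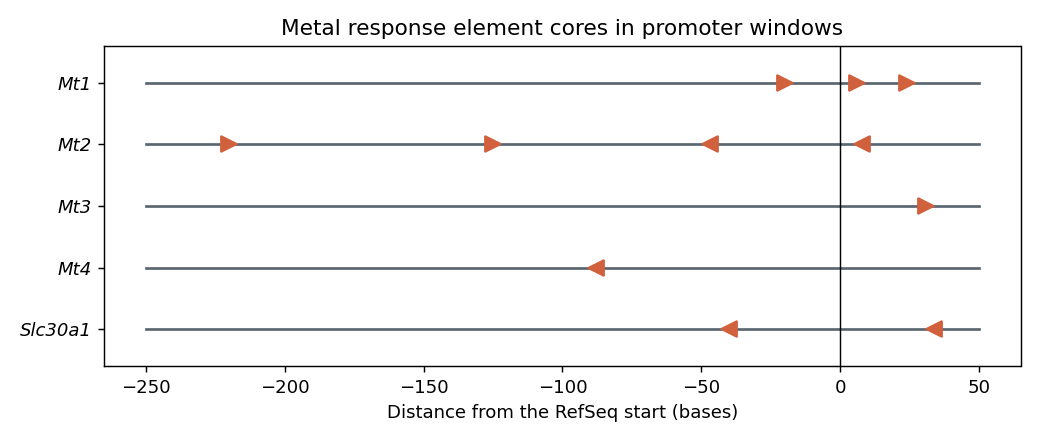
Positions of metal response element cores (triangles, pointing right for the + strand and left for the opposite strand) in the promoter windows of Mt1, Mt2, Mt3, Mt4 and Slc30a1, as distance in bases from the RefSeq start (vertical line). Mt2 has 4 cores, Mt1 has 3, Slc30a1 has 2 and the other 2 genes have 1 each.

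With prednisolone, transcripts of the zinc importer gene Slc39a14, the exporter gene Slc30a1 and the metallothionein gene Mt1 were higher, by 2.55-fold, 1.93-fold and 1.81-fold. Mtf1 and Slc39a10 were 1.47-fold and 1.49-fold higher. The importer gene Slc39a6 was 1.15-fold lower, a difference no larger than the software error, and it was 0.04 higher on the log2 scale when the arrays were scaled on spike-in probes. Mt2 was 1.43-fold higher on a spot whose surrounding background carried an outlier flag. Values are differences of log2 processed signal after subtraction of each array's 75th percentile, prednisolone minus vehicle. Each ± is the error that the scanner software gives, which covers neither labelling nor culture. Where a probe had several spots, or a gene several probes, these errors were averaged as if independent. Such a ± is smaller than that of 1 spot and does not show how far the probes differ. For bright spots the software error was 10% of the signal, a floor of the software and not a spread measured for these spots. Comparisons with this error below are read against that floor.

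Without flagged spots 6 of the 7 members had a value, and 1 of them, Slc39a14, was higher by 2-fold or more while none was lower by that much. Of the 11968 genes for which a difference could be computed, 5.77% were higher by 2-fold or more and 6.62% lower by 2-fold or more, so 1 member past 2-fold is a statement about that gene and not about the group. Those percentages stand for 690 higher and 792 lower genes, and scaling on the spike-in probes gave 1151 and 482. Of the 6 members with a value, 5 lay above 0, against 50.1% of all genes. Under spike-in scaling, which raises every difference alike, all 6 did, against 68.8% of all genes. The members' median was 0.72, whereas the median over all genes was 0.0014 and the SD over all genes was 0.73. The members were chosen with earlier results of these data known, so these contrasts with all genes describe the chosen genes only. Over the full families the medians were 0.087 for the ZnT exporters and 0.32 for the ZIP importers. Slc39a14 lay above 97.0% of the genes, Slc30a1 above 93.5% and Mt1 above 92.1%.

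**Figure D2:**
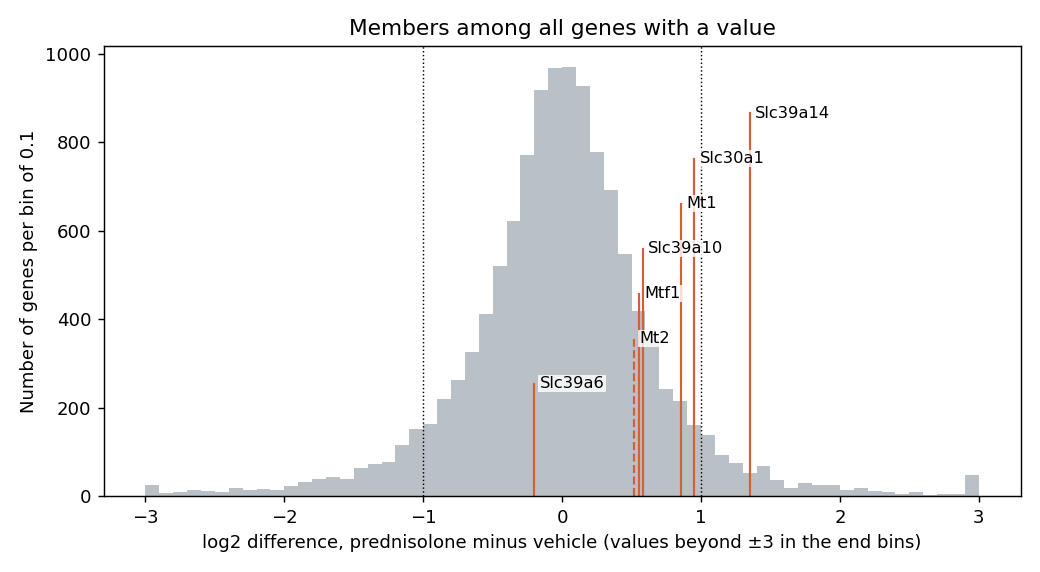
Histogram of the log2 difference, prednisolone minus vehicle, over the 11968 genes with a value (y axis, genes per bin of 0.1), with the members as vertical lines, Mt2 dashed because its spot carried a flag. Slc39a14 lies past the dotted 2-fold line at 1, the other members lie within 2-fold, and Slc39a6 is the member below 0 (0.04 under spike-in scaling).

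The metallothionein Mt1, which stores and buffers zinc, had a processed signal of 58141 ± 5814 intensity units on the prednisolone array and 33309 ± 3331 on the vehicle array. The prednisolone value was higher by 0.85 ± 0.20 (log2), and its error bar, set at 10% of the signal, stayed clear of the vehicle one. This spot stood 1984 times above its local background with prednisolone and 1059 times with vehicle. Probes of like brightness that were printed several times (76 probes) had a median spot-to-spot SD of 0.055 for such a difference.

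Mt2, the neighbouring gene with the same role, had 33425 ± 3343 units with prednisolone and 24194 ± 2419 with vehicle, a difference of 0.52 ± 0.20. Both arrays flagged the local background around this spot and neither flagged the spot itself. The median local background was 29 units with prednisolone and 32 with vehicle, against spot medians of 36248 and 25337 units, and unflagged spots within 10 rows and columns of it had a median difference of 0.0099. The Mt2 value is given with its flag and is not among the 6 counted above.

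The other 2 metallothionein genes are best known from other tissues, Mt3 from brain and Mt4 from stratified epithelium. Mt3 had 760.8 units with prednisolone and 609.5 with vehicle (0.37 ± 0.20). Mt4 had 67.9 units with prednisolone and 76.0 with vehicle (−0.11 ± 0.22, or 0.13 on the spike-in scale). On the log2 scale the 4 genes were thus 0.85, 0.52, 0.37 and −0.11 in the order Mt1 to Mt4, and the gaps between Mt1 and Mt2 (0.34, combined error 0.29) and between Mt3 and Mt4 (0.48, combined error 0.30) were larger than the software errors of the pair in quadrature, while that between Mt2 and Mt3 (0.15) was not. The members of this family are related in sequence, and whether a probe also captured transcripts of another member was not tested.

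**Figure D3:**
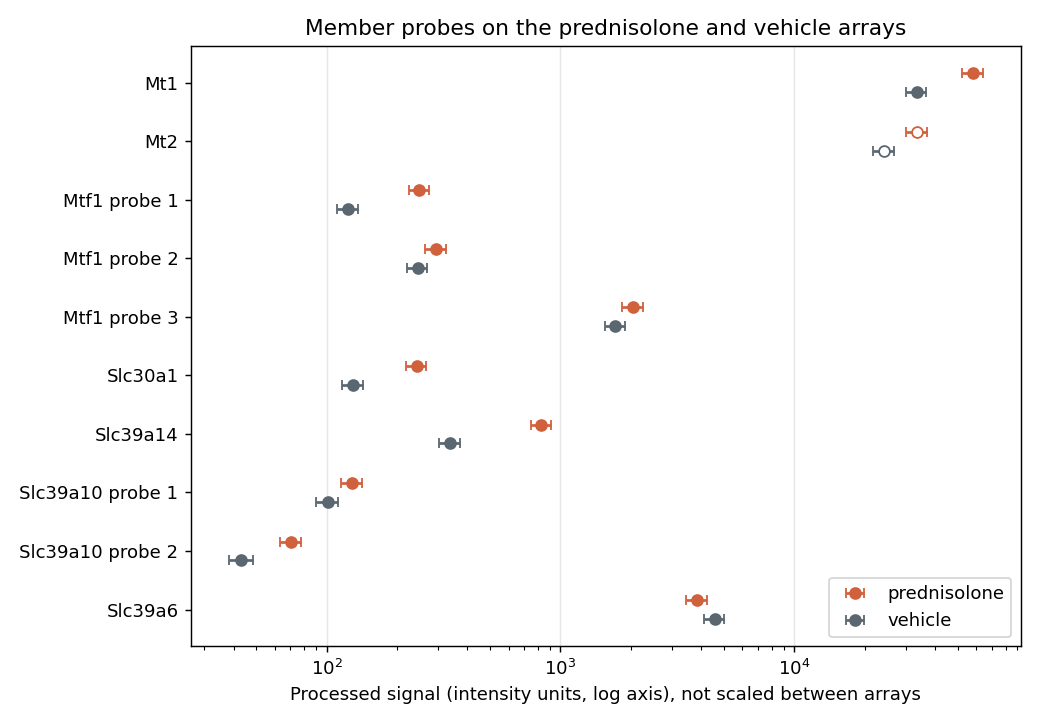
Processed signal of each member probe on the prednisolone array (upper point) and the vehicle array (lower point), on a log axis in intensity units before scaling between arrays, with bars for the software error and open points for the spot with a background flag. The prednisolone point lies right of the vehicle point for every probe except that of Slc39a6, which is 3833 units with prednisolone and 4565 with vehicle.

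Mtf1, which encodes the zinc-sensing transcription factor, was measured by 3 probes of one transcript that differed in size of effect. The first had 249.2 units with prednisolone and 123.6 with vehicle (1.06 ± 0.21). The second had 293.0 units with prednisolone and 245.2 with vehicle (0.31 ± 0.21). The third, which was the brightest, had 2041 units with prednisolone and 1717 with vehicle (0.30 ± 0.20). All 3 were higher with prednisolone. Their mean was 0.56 ± 0.12, while their median was 0.31, so the size for the gene rests on the probe at 1.06.

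Slc30a1 encodes ZnT1, the exporter that removes zinc across the plasma membrane and a known MTF-1 target. Its probe had 242.8 ± 24.4 units on the prednisolone array and 130.1 ± 13.3 units on the vehicle array, a difference of 0.95 ± 0.21. The error bars of the arrays did not overlap, and repeat-printed probes of like brightness (4 probes) had a median SD of 0.15. The value fell on either side of 2-fold by choice of processing, at 1.19 on the spike-in scale and 0.69 after normexp background correction, which adds an offset of 50 units.

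Slc39a14 encodes ZIP14, an importer of zinc that also carries iron and manganese. Its probe had 828.9 ± 82.9 units with prednisolone and 336.2 ± 33.7 units with vehicle, a difference of 1.35 ± 0.20. This was the member farthest apart, and it stayed past 2-fold, between 1.15 and 1.59, under the 6 alternative settings that could change its value. The other 5 settings leave a gene with 1 bright, unflagged probe as it is. Its difference rests on 1 probe, for 1 transcript. The genes whose difference was nearest to it over the 2 arrays were Exosc1, a component of the RNA exosome (1.35 ± 0.20), and Rexo2, an oligoribonuclease gene (1.35 ± 0.20).

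Slc39a10 encodes ZIP10, an importer that MTF-1 is known to repress when zinc is plentiful. One probe had 128.9 units with prednisolone and 100.9 with vehicle (0.40 ± 0.21), and the dimmer one had 70.5 with prednisolone and 43.2 with vehicle (0.76 ± 0.23). Both were higher with prednisolone, and the mean was 0.58 ± 0.15. Slc39a6 encodes ZIP6, an importer described at the surface of activated human T cells. It had 3833 ± 383 units with prednisolone and 4565 ± 456 with vehicle, a difference of −0.20 ± 0.20 (0.04 under spike-in scaling), so these arrays do not separate the cultures for this gene. By difference, the members thus ran from Slc39a14 through Slc30a1, Mt1, Slc39a10, Mtf1 and Mt2 to Slc39a6. Among the 6 pairs of neighbours in that order, Slc39a14 with Slc30a1 and Mt2 with Slc39a6 differed by more than their combined software errors. The Mt2 value is from a spot with a background flag. Mt1 with Slc39a10 also did (0.27, combined error 0.26), but only with the Slc39a10 probe errors averaged as if independent. Mt1 (0.85 ± 0.20) lay clear of the Slc39a10 probe at 0.40 ± 0.21 but not of that at 0.76 ± 0.23. Whether this order holds over repeat cultures was not tested.

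Around the members, the exporter family as a whole had a median of 0.087, against 0.0014 over all genes. That median had no stable direction, with −0.02 after normexp, −0.05 without a filter on dim probes and −0.06 with the stricter filter. Of the 10 ZnT genes 6 had a value, 3 were above 0 and 3 below (4 above and 2 below on the spike-in scale), and none was 2-fold apart. After Slc30a1 the highest was Slc30a5, which encodes a transporter of the early secretory pathway, at 0.57 ± 0.15 with both probes alike (0.54 and 0.60). Slc30a4, a transporter of endosomes, was −0.52 ± 0.20, and Slc30a9, known from mitochondria, was −0.46 ± 0.22. Slc30a7 of the Golgi was −0.06 ± 0.21 and Slc30a2 was 0.23 ± 0.41. Slc30a6, the partner of Slc30a5, had a flagged spot at 0.11 ± 0.20. Slc30a3, Slc30a8 and Slc30a10 stayed too close to background on both arrays to give a value.

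The importer family had a median of 0.32. Of the 14 ZIP genes 11 had a value, 7 lay above 0 and 4 below (all 11 above on the spike-in scale, where 68.8% of all genes were), and Slc39a14 was the 1 past 2-fold. Next to it stood Slc39a11 at 0.86 ± 0.14, whose 2 probes for different transcripts were at 0.85 and 0.87. Slc39a8, the gene of ZIP8, described in human T cells as a lysosomal zinc transporter, was 0.45 ± 0.16 with probes at 0.42 and 0.47. Slc39a3 was 0.42 ± 0.20, Slc39a7, the zinc channel of the endoplasmic reticulum, was 0.32 ± 0.14, and Slc39a9 was 0.14 ± 0.21.

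Near or below 0, and above it on the spike-in scale, were Slc39a1 (−0.02 ± 0.20), Slc39a2 (−0.05 ± 0.35) and Slc39a13, a Golgi transporter (−0.17 ± 0.15). The 2 probes of Slc39a13 went opposite ways, at 0.39 and −0.72, so its mean describes neither. Slc39a4, the importer of the intestinal epithelium, had a spot with a background flag on the prednisolone array, with 1596 units there and 3342 on the vehicle array (−1.02 ± 0.20). Slc39a5 and Slc39a12 stayed too close to background on both arrays.

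**Figure D4:**
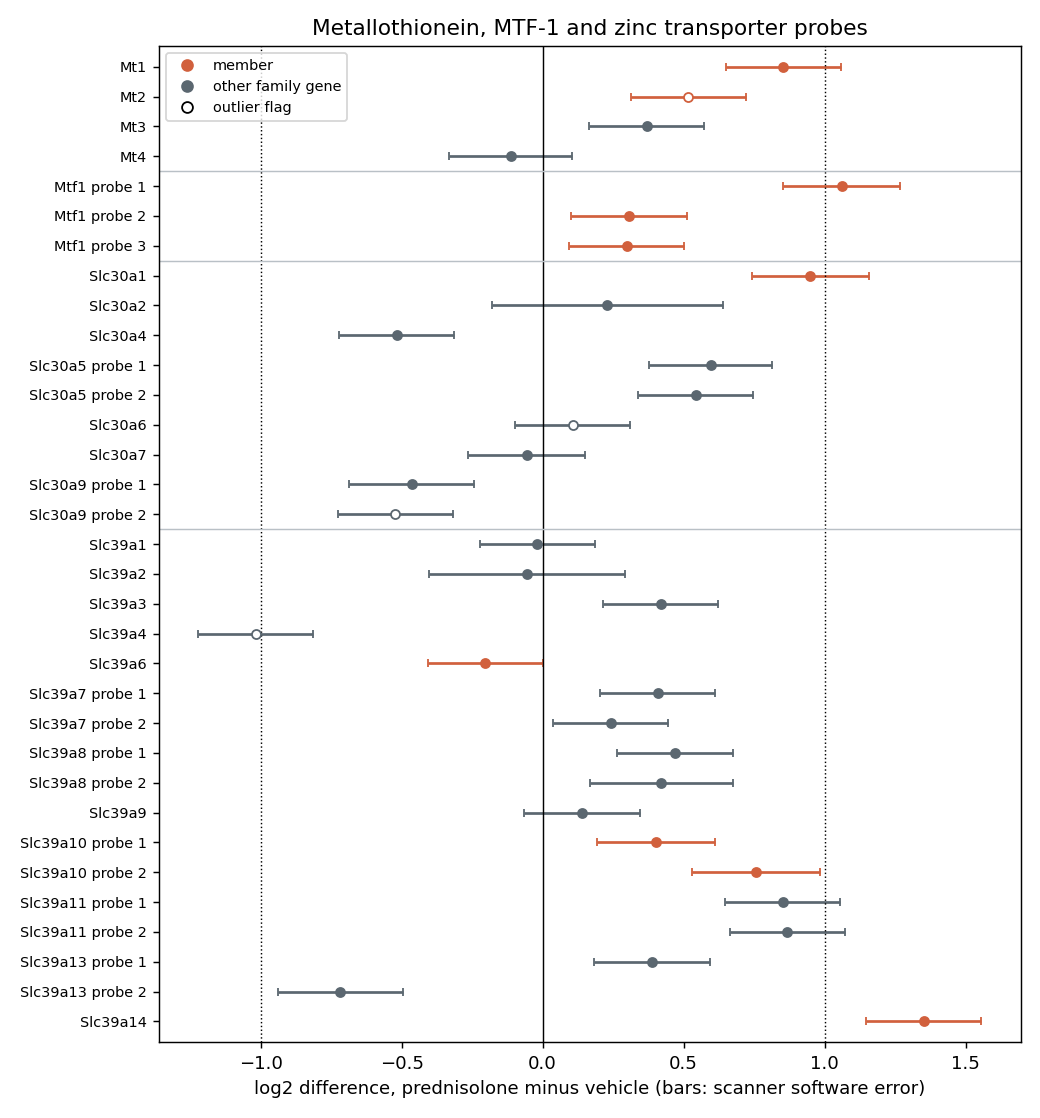
log2 difference of each metallothionein, Mtf1, ZnT (Slc30) and ZIP (Slc39) probe that was well above background on both arrays, prednisolone minus vehicle, with bars for the software error, dotted lines at 2-fold and open points for flagged spots. Slc39a14 is farthest right at 1.35, the first Mtf1 probe is at 1.06, and the flagged Slc39a4 spot is farthest left at −1.02.

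Reported MTF-1 targets outside the metallothioneins had a median of 0.76 from 4 of 9 genes with a value, 2 of which are the members Slc30a1 and Slc39a10. The list mixes directions, because Slc39a10 is known as a target that MTF-1 represses when zinc is plentiful. Its median is therefore not a measure of MTF-1 activity. None was 2-fold apart. The farthest was Gclc, which encodes the catalytic subunit of glutathione synthesis, at 0.96 ± 0.20, and Selenow was 0.03 ± 0.20. Ndrg1, also known as a hypoxia-induced gene, was −1.20 ± 0.20 and Csrp1 was −0.02 ± 0.20 on flagged spots, and with flagged spots kept the median was 0.30. Pgf, Slc40a1 and Hamp were not well above background.

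Some other measured features also differed between the 2 cultures, and others were near level. The glucocorticoid-induced genes Klf9 (3.23), Fkbp5 (2.57) and Tsc22d3 (1.45) were at least 2-fold higher with prednisolone, while Per1 (0.40) and Nr3c1 (0.60), the gene of the glucocorticoid receptor, were within 2-fold. Marker genes of cell types were summed as scaled signal over all their probes, flagged spots included. All 6 CD8 T cell markers were well above background on both arrays and summed to 527.6 with prednisolone and 686.9 with vehicle. Among them Cd8a was −0.01 ± 0.14, Cd2 0.10 ± 0.20, Cd3e −0.42 ± 0.20 and Cd3d −0.61 ± 0.14, while Cd8b1 (−0.17) and Cd3g (−0.87) had flagged spots.

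Of 4 erythroid markers with a probe 3 were well above background on each array, and the list summed to 8.63 with prednisolone and 0.871 with vehicle. Hba-a1 was 3.97 ± 0.05, Hba-a2 4.01 ± 0.07 and Hbb-bt 0.87 ± 0.21, and Alas2 stayed near background on both arrays. Of 5 myeloid markers 3 were well above background on each array, with Cd68 at −2.22 ± 0.20, Csf1r at 0.23 ± 0.21 and Itgam at 0.02 ± 0.22. That list summed to 10.9 with prednisolone and 12.6 with vehicle. Over gene values, which average each gene's passing probes on the log2 scale and leave out flagged spots, it summed to 1.62 and 3.60. Lyz2 and Adgre1 were not well above background. NK markers summed to 0.525 with prednisolone and 0.160 with vehicle, with Klra8 at least 4.52-fold higher, Klrb1c at 0.07 ± 0.32 and Ncr1 near background. Neutrophil markers summed to 0.722 with prednisolone and 0.530 with vehicle. Elane, the only one of them with a value on both arrays, was 0.11 ± 0.21. Cxcr2 was at least 5.69-fold higher and Mpo at least 1.34-fold lower, each well above background on 1 array only, and S100a8 and S100a9 were near background. CD4 T cell markers summed to 1.88 with prednisolone and 1.87 with vehicle, a sum carried by the brighter Cd4 (0.08 ± 0.20). The dimmer Foxp3 was −0.75 ± 0.22, and Cd40lg was not well above background. The part of any of these cell types in the zinc-gene values was not tested, and in RNA from a whole culture, fewer cells of a type cannot be told apart from less RNA per cell.

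**Figure D5:**
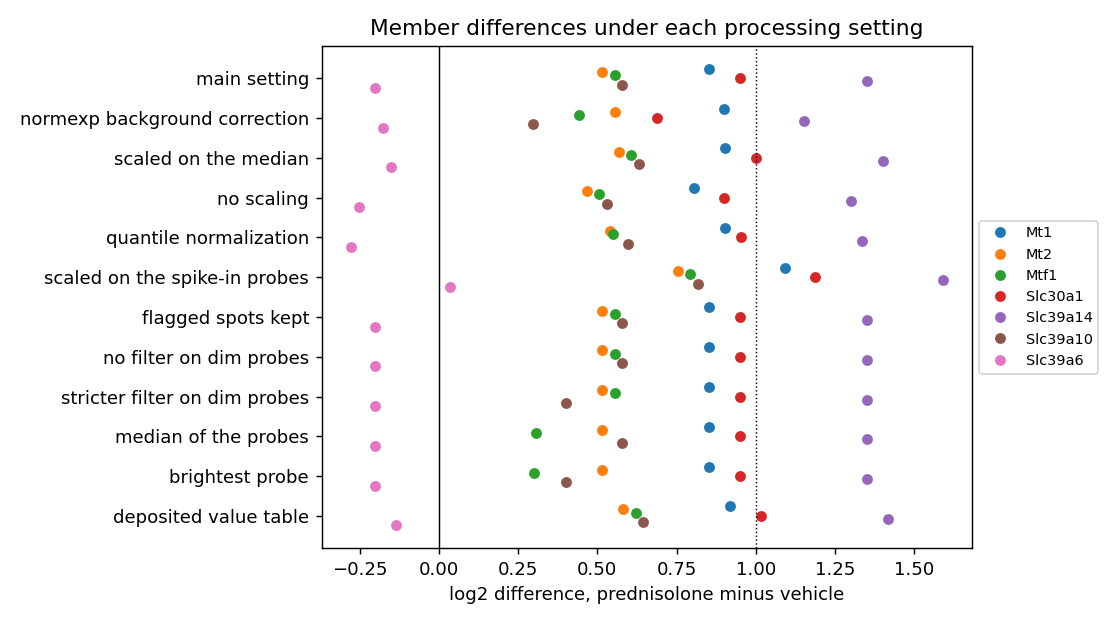
log2 difference of each member (colours), prednisolone minus vehicle, under the main setting and 11 alternatives (rows), with the dotted line at 2-fold. Slc39a14 lies right of it in every row, 5 of which repeat its main value. Slc30a1 reaches that line in some rows, and Mt1 only under scaling on the spike-in probes. Slc39a6 lies left of 0 except at 0.04 under that scaling.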

How the data were processed

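The deposited scanner files hold linear intensity per spot, which Agilent Feature Extraction 12.0.3.1 had background-subtracted and detrended within each array, per the file headers. A second deposited table of intensity equals that signal multiplied by 1 constant per array, 0.858 for prednisolone and 0.792 for vehicle, on a linear scale, uncentred, with column medians of 16.4 and 16.2. Why these constants were used is not stated in the sources at hand. Of 59305 non-control spots, 53.5% were well above background on either array, and none was saturated. Outlier flags fell on 5291 spots with prednisolone and 4270 with vehicle, 5162 and 4131 of them for the local background alone. The number of arrays limits the precision.

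Accessions without version were matched to RefSeq genes of GRCm38.p6, which named 33767 of 56605 probes. The headers name mm9, so gene coordinates are not given, and promoter windows come from RefSeq tables of GRCm38.p6. Processed signals were divided by the array's 75th percentile (386.9 with prednisolone, 400.4 with vehicle) and put on the log2 scale. Probes that passed on both arrays (well above background, unsaturated, unflagged) were averaged per gene. A 2-fold difference was counted without a test. Alternatives were normexp (limma 3.58.1, offset 50, on median spot and background signals), 4 other scalings, flagged spots kept, 2 filters on dim probes, 2 probe summaries and the deposited table. The procedure was tested on simulated data with noise added per spot and none between cultures, which checks the calculation only. Members, lists and the naming rule were chosen with earlier results of these data known. The rule names all members, every metallothionein, ZnT and ZIP gene with a value or bound, the genes of the MTF-1, copper and iron lists at least 2-fold apart or else the farthest from 0, the glucocorticoid check genes, and the 2 genes nearest in difference to a member past 2-fold. Other names were chosen after their values were seen.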

Additional observations from a re-analysis of the deposited data

How the results depend on the processing

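No paired analysis was possible because each condition had 1 array. Of 77 member values recomputed under the 11 alternatives, 31 were identical because the alternative left the same spots and scale in place, 33 moved by less than the software error and 13 by more, and every member except Slc39a6 stayed above 0 throughout. Scaling on the 8 spike-in probes, which were lower with prednisolone by a mean log2 difference of −0.24, moved the median of all genes to 0.24. It gave 1.09 for Mt1, 0.75 for Mt2, 0.79 for Mtf1, 1.19 for Slc30a1, 0.036 for Slc39a6, 0.82 for Slc39a10 and 1.59 for Slc39a14. The count of members at least 2-fold higher was then 3, in place of 1, and it was 2 when scaled on the median and 2 in the deposited table. The list medians under spike-in scaling were 0.61 for metallothioneins, 0.33 for exporters, 0.56 for importers, 1.003 for MTF-1 targets, 0.21 for copper handling and 0.33 for iron handling. Normexp gave 0.69 for Slc30a1, 0.30 for Slc39a10 and 0.49 for the MTF-1 targets. The median of its probes gave 0.31 for Mtf1 and its brightest probe 0.30, and Slc39a10 was 0.40 on its brightest probe and 0.40 with the stricter filter, which leaves 1 probe. Without a filter on dim probes the importers had a median of 0.063 and the MTF-1 targets 0.028, and with flagged spots kept the MTF-1 targets had 0.30. Over all genes, those at least 2-fold higher and lower numbered 385 and 410 after normexp, 1151 and 482 on the spike-in scale, and 1460 and 1701 with no filter on dim probes. Values of Slc30a1, Slc39a10 and the dim Mtf1 probes are limited by signal over background, at 2.83 to 10.9 times.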

Other observations

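Genes that handle other metals showed 1 difference past 2-fold. In the iron list (8 of 10 genes with a value, median 0.096) Tfrc, which encodes the transferrin receptor for iron uptake, was 1.44 ± 0.14 with prednisolone, with probes at 1.30 and 1.57. Fbxl5, an iron-sensing ubiquitin ligase subunit, was −0.74 ± 0.15 and the heme oxygenase gene Hmox1 was −0.66 ± 0.20, while the ferritin genes Fth1 (0.28 ± 0.20) and Ftl1 (0.10 ± 0.14) lay nearer 0. In the copper list (9 of 10 with a value, median −0.03, or 0.21 on the spike-in scale) none was 2-fold apart, and the farthest from 0 was Slc31a2, a copper transporter gene, at 0.59 ± 0.21.

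The metallothionein genes lie next to each other on chromosome 8 in the order Mt4, Mt3, Mt2, Mt1 in RefSeq, with Bbs2 before and Nup93 after them among protein-coding genes. Nup93, a nuclear pore gene, was 1.30 ± 0.20 with prednisolone, and Bbs2, a gene of the primary cilium, was −0.60 ± 0.25. These 2 genes were taken for their position after the values were seen.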
